A study of Mus musculus with 39 samples.

Results

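The 8 loci described here carry the genes of the DNA methylation machinery: the maintenance pair Dnmt1 and Uhrf1, the de novo group Dnmt3a, Dnmt3b and Dnmt3l, and the oxidases Tet1, Tet2 and Tet3. Each locus is a fixed window of genome build mm9 around the gene, and every measured CpG and every 200 bp tile inside a window was taken. This gave 213 of 330387 CpGs and 214 of 377684 tiles. The windows were chr9:20705000-20765000 for Dnmt1, chr17:56437000-56468000 for Uhrf1, chr12:3800000-3920000 for Dnmt3a, chr2:153470000-153518000 for Dnmt3b, chr10:77500000-77531000 for Dnmt3l, chr10:62260000-62350000 for Tet1, chr3:133120000-133215000 for Tet2 and chr6:83305000-83400000 for Tet3. The values are methylation levels of DNA at these genes and say nothing of their expression. No gene annotation of build mm9 was used here, so exons and introns are not given.

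The study profiled mouse embryonic stem cells (mESC) with wild-type p53 (WT) or with both copies of Trp53 disrupted (p53-null), derived from day 2.5 embryos of crosses between heterozygous 129s-Trp53tm2Tyj/J mice. The naive groups were grown in 2i+LIF medium on irradiated feeder fibroblasts; the RA groups were depleted of feeders and then given 1 µM retinoic acid (RA) for 4 days. Adult liver came from 16-week-old WT and p53-null mice. Reduced representation bisulfite sequencing (RRBS) reads MspI-cut, CpG-rich fragments and gives total methylation, that is 5-methylcytosine (5mC) plus 5-hydroxymethylcytosine (5hmC); the oxidative form (oxRRBS) gives 5mC alone. RRBS covered 5 naive WT, 3 naive p53-null, 5 RA WT, 4 RA p53-null, 3 liver WT and 3 liver p53-null libraries, and oxRRBS covered 5, 3, 4 and 4 mESC libraries in the same order. Nothing in the sources says whether libraries of a group came from separate lines, clones or animals.

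Methylation at CpGs is copied after replication by DNMT1, which UHRF1 brings to hemimethylated DNA. New methylation is laid down by DNMT3A and DNMT3B, with the catalytically inactive DNMT3L as their cofactor, and is removed through oxidation of 5mC to 5hmC and further forms by the TET enzymes. Naive mESC in 2i medium are known for low methylation, which is regained on exit from the naive state.

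The deposited tables give 1 pooled value per group, with no read counts and no values of single libraries. Depth is therefore unknown, and the values carry no standard deviation, n or confidence interval. The 4 total columns of the CpG table are named by genotype and state. The tile table holds 2 sets of total and 5mC columns whose headings give genotype but no state, and they are called the first and the second set. Among tiles with a single measured CpG and a level over 5% in either table, taken over the whole series, the first set lay within 1 point of the naive WT column at 19.4% and of the RA WT column at 1.91%. For the second set the shares were 2.53% and 15.2%. Tile columns headed with a genotype alone were taken as liver, because only the liver libraries' labels name this table; the heading itself names no tissue. The test used is the authors' deposited q-value between genotypes, which exists for the tiles only. A tile was called where q was under 0.05 and the difference at least 10 percentage points (points). How that test treated replicates is unknown.

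Around the starts that could be placed, the measured CpGs were nearly free of methylation in every mESC group. Promoter sequences of RefSeq (build GRCm38.p6, 250 bases before to 50 after a start) were placed on the mm9 files without converting coordinates, by sliding each along the measured CpGs of its chromosome until measured CpGs fell on its CG letters and on no other letters. All 8 genes have such a sequence, 15 in all. The start of Uhrf1, 1 of 2 listed for that gene, is shown with that of Tet2. Among the placed starts of the 8 genes these carry the most measured CpGs, 20 and 14. Both are printed 5′ to 3′ as the 250 bases before the start, with the CpGs measured here in capitals. They come from GRCm38.p6 chr17:56304063-56304312, plus strand, and chr3:133544391-133544640, minus strand.
Uhrf1: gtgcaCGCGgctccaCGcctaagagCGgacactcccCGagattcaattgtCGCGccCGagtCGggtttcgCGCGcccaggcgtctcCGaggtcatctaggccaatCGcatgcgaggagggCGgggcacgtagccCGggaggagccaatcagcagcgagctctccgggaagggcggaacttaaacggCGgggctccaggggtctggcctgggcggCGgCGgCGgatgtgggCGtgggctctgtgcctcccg
Tet2: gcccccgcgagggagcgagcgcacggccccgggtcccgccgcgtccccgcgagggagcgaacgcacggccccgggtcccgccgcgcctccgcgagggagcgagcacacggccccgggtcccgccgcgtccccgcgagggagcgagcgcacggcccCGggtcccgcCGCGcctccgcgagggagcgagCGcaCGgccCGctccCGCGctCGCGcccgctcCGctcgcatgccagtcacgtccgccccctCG
The 250 bases hold 30 CG in Uhrf1, of which 20 were measured, and 51 in Tet2, of which 12 were measured. Of the 20 Uhrf1 CpGs, 13 were at 0 in all 4 mESC groups and the highest single value was 4%. The group means were 0 in naive WT, 0.100% in naive p53-null, 0.150% in RA WT and 0.800% in RA p53-null. Of the 14 Tet2 CpGs in the 300 bases, 6 were at 0 throughout and the highest value was 3%. The Tet2 means were 0.286%, 0.357%, 0.214% and 0.429% in the same order. The groups at both starts thus lay within 1 point of each other.

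Dnmt1 and Tet1 could be placed as well. Of the 3 Dnmt1 starts in the table, 1 fell at mm9 chr9:20757018-20757317 with 12 measured CpGs, whose means were 0.167% in naive WT, 0.333% in naive p53-null, 0 in RA WT and 0.500% in RA p53-null. The Tet1 sequence fell at chr10:62350023-62350322, just past the window, with 7 CpGs and means of 0.143%, 1.29%, 0.571% and 0.571%. Uhrf1 lay at chr17:56443486-56443785 and Tet2 at chr3:133207305-133207604. Dnmt3a, Dnmt3b, Dnmt3l and Tet3 were not placed. The rule chosen first asked for at least 5 measured CpGs and a single possible offset, which placed Tet1 alone; the stricter minimum of 8 placed Dnmt1, Uhrf1 and Tet2. Over all promoters, 83.6% of those placed with the minimum of 5 and 99.2% of those placed with the minimum of 8 kept the strand of the table, and a chance match would fall on either strand. Of the 336 promoters placed on 7 CpGs, as Tet1 was, 99.7% kept it. Low levels were the rule at starts placed with the minimum of 8: of 3171 such promoters, 3154 (99.5%) had all 4 group means under 5%. That minimum takes only promoters with many measured CpGs, so the share does not speak for other starts. Of 31 other genes of the pathway, 24 have a promoter sequence. With the minimum of 8, 6 genes had one placed, such as the glycosylase gene Tdg, the histone methyltransferase gene Ezh2 and the methyl-donor enzyme gene Mat2a. All 6 were under 5% in every group, and the highest group mean was 0.889%. The weaker minimum of 5 placed further promoters of these genes, with group means of at most 1.4%, at Idh1 in naive p53-null.

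Stretches of low tiles lay in 7 of the 8 loci. A stretch was counted where at least 3 neighbouring tiles, no more than 600 bases apart, were under 5% in every total and liver value they have; the limits were set after the values were seen. The search was not made outside the 8 loci, so no background share can be given, and whether such stretches are more common here is not known. There were 8 stretches of 600 to 2000 bases, holding 48 tiles and 138 CpGs. They lay at chr9:20756801-20757400 in Dnmt1, chr17:56442201-56444000 and chr17:56464801-56466200 in Uhrf1, chr12:3806401-3808400 in Dnmt3a, chr2:153475201-153476200 in Dnmt3b, chr10:62348001-62350000 in Tet1, chr3:133207201-133208000 in Tet2 and chr6:83391201-83392000 in Tet3. The stretches of Dnmt1, Tet2 and the first of Uhrf1 hold the placed starts, and that of Tet1 ends next to one. The second Uhrf1 stretch holds no placed start. Not every tile of a stretch was measured in mESC. All 10 Dnmt3a tiles have liver values, but only 2 have values in the first set and 1 in the second. All 6 tiles of the second Uhrf1 stretch have liver values, but only 2 have values in each set. At Tet1 all 9 tiles have values in both sets. Dnmt3l had no such stretch: of 3 adjoining tiles from chr10:77506201 on, the last was at 12.5% in WT of the first set and 52.8% in liver p53-null. A matched promoter of another gene, Aire, lies in these tiles, as described below. The highest total or liver level in any of the 48 tiles was 4.27%, in liver p53-null at Tet1. Levels of 5mC did not enter the definition; they stayed at or under 2.42% in all stretches but that of Tet1, where the tile at chr10:62348001 was listed at 12.3% 5mC in p53-null cells of the first set and at 0 in total methylation.

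**Figure D1:**
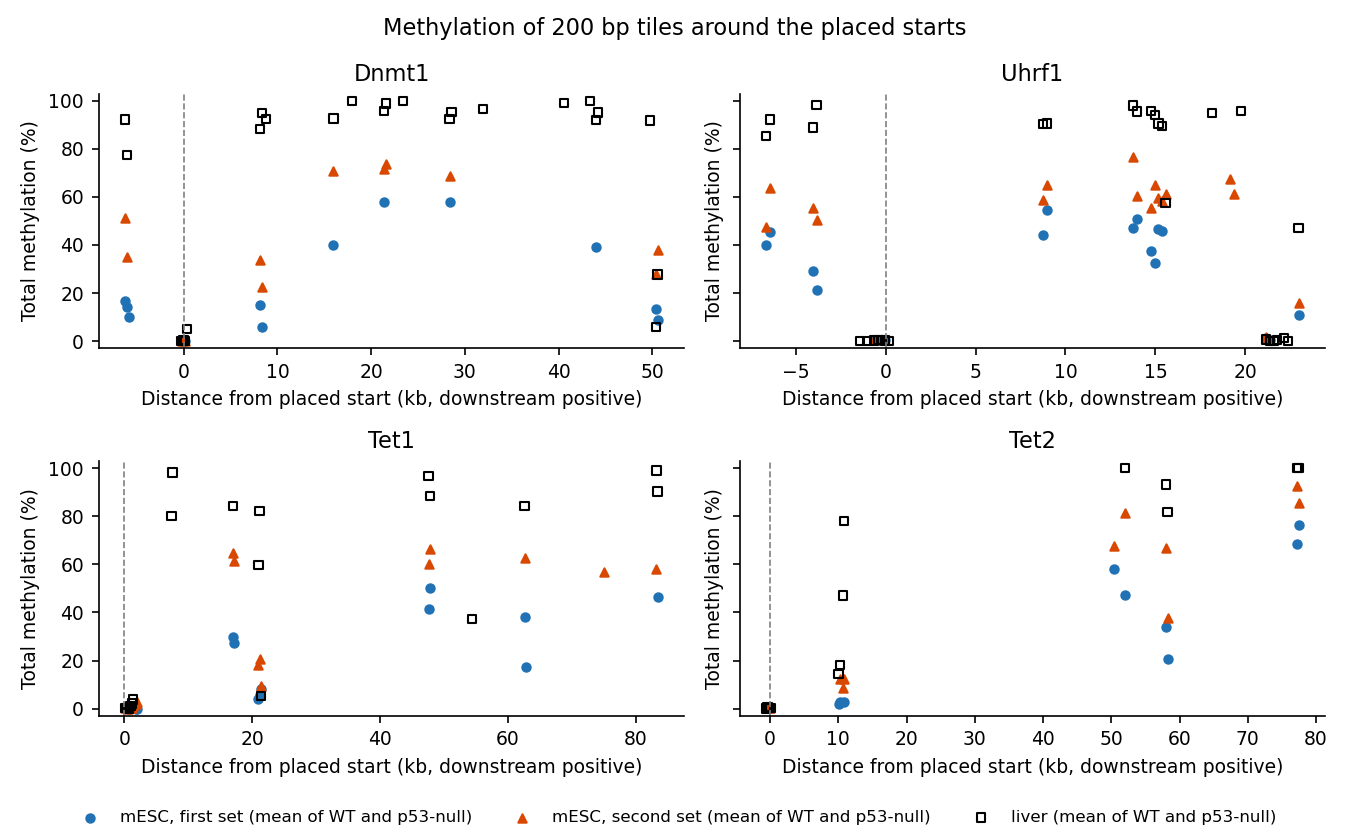
Total methylation of 200 bp tiles (percent, vertical axis) against distance from the placed start (kb, downstream positive) at Dnmt1, Uhrf1, Tet1 and Tet2; each point is the mean of the WT and p53-null columns of the first mESC set (blue circles), the second set (orange triangles) or liver (open squares). Tiles at the start lie near 0 in all columns, and away from it the liver tiles mostly lie above the second set, which lies above the first.

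Taken over all their CpGs, the 8 loci together were partly methylated in naive WT cells and more so in the other groups. Dnmt3l alone had a lower mean in naive p53-null, 6.5%, than in naive WT, 7.5%. Of the 213 CpGs, 138 (64.8%) were under 5% in all 4 groups, against 60.4% of all CpGs measured. These are not the same 138 CpGs as those of the stretches, where single CpGs reached up to 9%. Over all 213, the mean total methylation was 10.01% in naive WT, 13.3% in naive p53-null, 17.7% in RA WT and 16.6% in RA p53-null. Over all CpGs of the series these means were 9.77%, 12.6%, 16.3% and 15.1%. The order of the groups was thus that of the whole series. Over the 75 member CpGs kept for reaching 5% in some group, the means were 27.9%, 37.4%, 49.7% and 46.5%, and over all CpGs kept in this way they were 24.2%, 31.3%, 40.5% and 37.4%.

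In naive cells, p53-null DNA was higher than WT by 3.33 points on average over the 213 CpGs, against 2.82 over all CpGs. A gap of at least 25 points was found at 12 CpGs with p53-null higher and at 0 with it lower, where the whole table has 3.75% higher and 0.192% lower; the member share was 5.63% higher. The 12 lay in Dnmt3a (4), Tet3 (3), Dnmt1 (2), Uhrf1, Tet1 and Tet2. After RA the genotypes differed by -1.04 points (p53-null minus WT), against -1.17 over all CpGs, and no member CpG differed by 25 points in either direction, where the whole table has 0.281% higher and 1.15% lower. In WT cells, RA-treated DNA was higher than naive by 7.66 points on average, against 6.48 over all CpGs. Here 32 CpGs (15.0%) were higher by 25 points or more and 0 lower, with 11.7% and 0.066% in the whole table. In p53-null cells the difference between the states was 3.29 points, against 2.49; 12 CpGs were higher by 25 points and 0 lower, with 4.29% and 0.864% in the whole table. These are pooled values without a test, and whether they exceed the spread between libraries is not known.

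**Figure D2:**
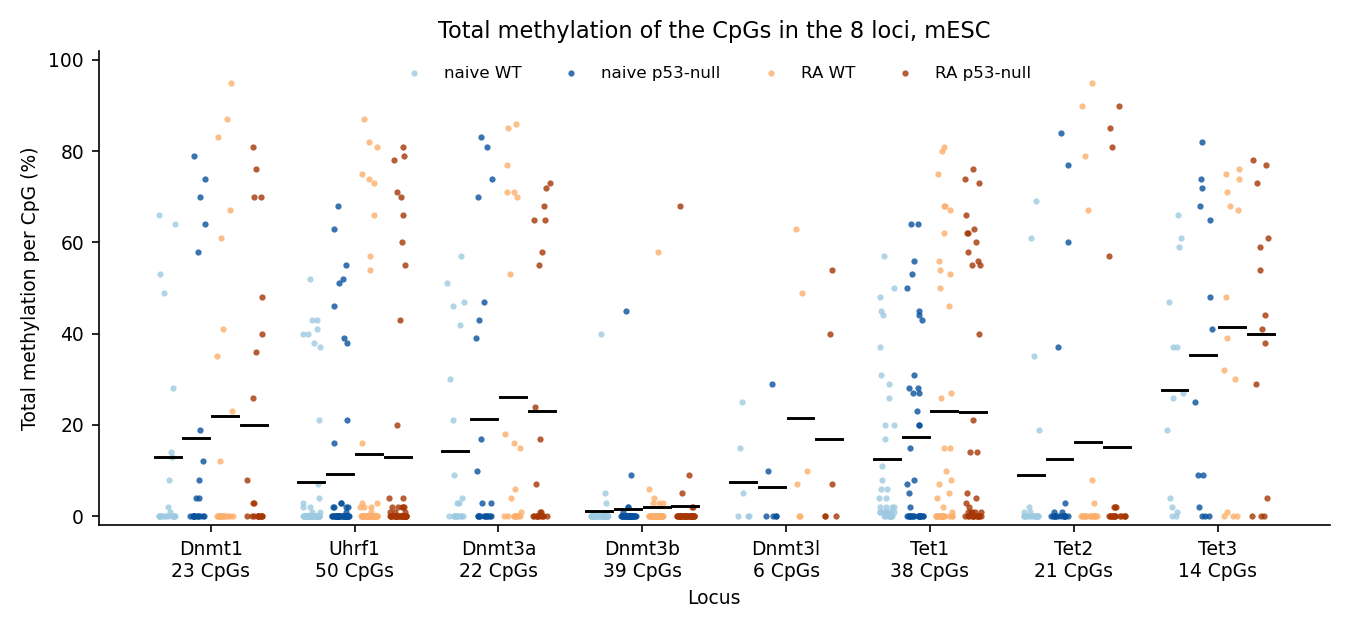
Total methylation of each of the 213 CpGs (points, percent) by locus in the 4 mESC groups; the horizontal bars are means over the CpGs of a locus and are no error estimate. Bars stand highest in Tet3 and lowest in Dnmt3b, and in each locus but Dnmt3b the RA WT bar is the highest of the 4.

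In the tiles, the first set held 131 member tiles with a mean total methylation of 25.8% in WT and 34.2% in p53-null, a difference of 8.40 points against 8.65 over all tiles. By the authors' deposited q-values, 38 of the 131 rose in p53-null and 0 fell; the whole table has 28.1% called higher and 0.786% lower, so the member share of 29.01% was near the background. The second set held 135 member tiles at 42.9% in WT and 40.9% in p53-null. There, by the authors' deposited q-values, 1 tile rose, in Uhrf1, and 3 fell, in Dnmt1, Uhrf1 and Tet3, where the whole table has 0.481% higher and 3.65% lower. For 5mC, the first set had means of 20.3% and 27.7%, with 43 tiles higher and 6 lower by the authors' deposited q-values, where the whole table has 36.6% and 6.03% called. The second set had 5mC means of 42.1% and 37.1%, with 3 called higher and 18 lower, where the whole table has 2.81% and 12.3%. For the 113 tiles that both sets share, the second set was higher in total methylation by 16.3 points in WT and by 5.26 in p53-null, against 13.2 and 1.61 over all tiles. For 5mC these differences were 20.1 and 10.8 points, against 17.0 and 3.75.

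**Figure D3:**
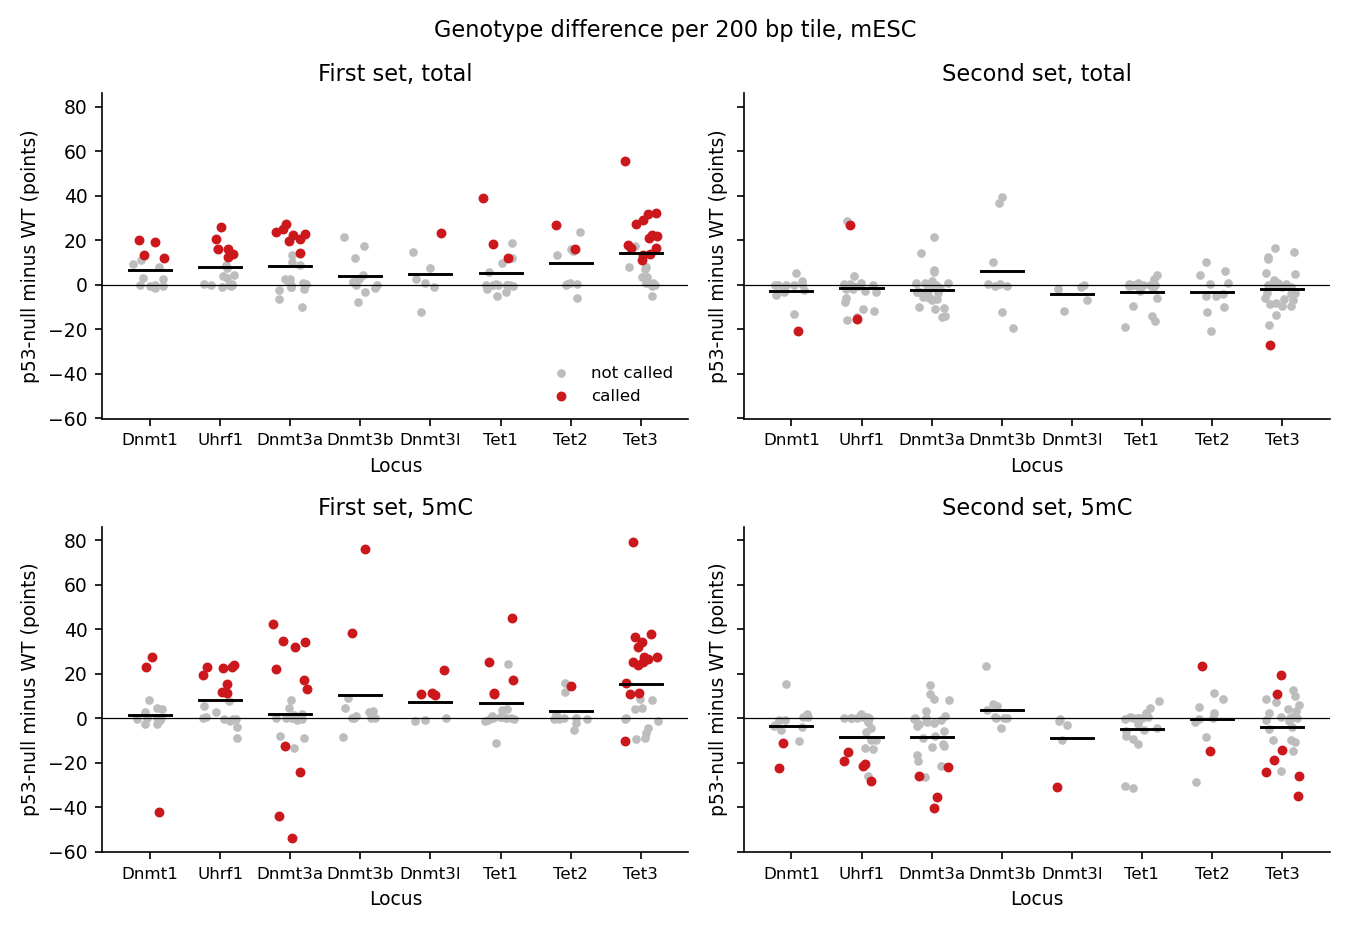
Difference in methylation between p53-null and WT (points) of each member tile, by locus, for total methylation (top) and 5mC (bottom) in the first (left) and second (right) set; red points are tiles called by the authors' q-value, grey points are not called, and bars are means over tiles. In the first set most called tiles lie above 0, and in the second set most lie below it.

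Dnmt1, the maintenance methyltransferase, had 23 CpGs, of which 14 were under 5% in every group. The 4 CpGs at chr9:20713627 to 20713759 lie close together. At 20713627 the levels were 49% in naive WT, 58% in naive p53-null, 87% in RA WT and 76% in RA p53-null. At 20713759 they were 28%, 64%, 67% and 48%, so that the naive p53-null value stood 36 points above naive WT and the RA p53-null value 19 below RA WT. That CpG had the largest differences of the locus in 3 of the 4 comparisons. The CpG at 20728776 had close values in all groups, with 64%, 70%, 61% and 70%. Total methylation rose in 4 of 14 Dnmt1 tiles of the first set (28.6%), against 28.1% of all tiles. The largest such difference was from 0 to 20% at chr9:20762801-20763000, for which the authors' deposited table lists q = 0.0192. At chr9:20741001-20741200 5mC fell from 76.3% to 34.3% in the first set (q = 3.46e-11, as the authors' deposited table has it), while total methylation there was 38.6% in WT and 41.5% in p53-null. The WT 5mC value of that tile thus exceeds its total value.

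Uhrf1, whose protein guides DNMT1, had 50 CpGs, 40 of them under 5% throughout. All 50 together averaged 7.5% in naive WT, 9.28% in naive p53-null, 13.6% in RA WT and 12.9% in RA p53-null. At chr17:56457763 the levels were 41%, 68%, 87% and 78%, and at 56457553 they were 40%, 39%, 75% and 79%. Of this pair of nearby CpGs, the first differed between the naive genotypes by 27 points and the second by -1. Total methylation rose in 6 of 19 tiles of the first set (31.6%), against 28.1% of all tiles. The largest rise was at chr17:56458401-56458600, from 24.5% to 50.5% (the authors' deposited table lists q = 1.9e-09). The second set has 58.5% for WT and 52.4% for p53-null there, and the tile was not called. For 5mC, 8 of the 19 tiles rose in the first set and 5 of 22 fell in the second, by the authors' deposited q-values. These shares of 42.1% and 22.7% stand against 36.6% and 12.3% of all tiles.

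Dnmt3a, a de novo methyltransferase, had 22 CpGs, 11 of them under 5% throughout. All 22 together averaged 14.2% in naive WT and 21.4% in naive p53-null, and 26.0% and 23.0% after RA. At chr12:3849446 the levels were 51% in naive WT, 81% in naive p53-null, 85% in RA WT and 73% in RA p53-null. At 3896059 they were 57%, 83%, 77% and 72%, and at 3912465 they were 42%, 70%, 70% and 58%. In these CpGs the naive p53-null value stood within 6 points of RA WT, and naive WT stood lowest. By contrast, at 3907703 the naive genotypes had 46% and 43%, with 86% in RA WT and 65% in RA p53-null. Total methylation rose in 8 of 23 tiles of the first set (34.8%), against 28.1% of all tiles. At chr12:3815001-3815200 it went from 40.0% to 67.3% (the authors' deposited table lists q = 0.0106). The 5mC calls of that set went in both directions, with 7 higher (30.4%) and 4 lower (17.4%), against 36.6% and 6.03% of all tiles. In the tile chr12:3849401-3849600 total methylation was higher in p53-null, 77.2% against 53.6%, and 5mC lower, 14.6% against 68.2% (the authors' deposited table lists q = 2.42e-11 for 5mC).

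Dnmt3b, the other de novo methyltransferase, was the locus with the least methylation per CpG. Of its 39 CpGs, 37 lay in the low stretch at chr2:153475201-153476200, and 24 were at 0 in all groups. The CpG at 153499957 was the only one of the locus above 9%, with 40% in naive WT, 45% in naive p53-null, 58% in RA WT and 68% in RA p53-null. By the authors' deposited q-values, 0 of 12 Dnmt3b tiles of the first set were called in total methylation, and 0 of 9 of the second. Among all tiles of the first set, 28.1% were called higher and 0.786% lower. For the second set these shares were 0.481% and 3.65%. With shares this low, 0 calls among 9 tiles do not set Dnmt3b apart. In 5mC, 2 of 12 tiles of the first set rose (16.7%), against 36.6% of all tiles. The larger was chr2:153488601-153488800, from 4.65% to 80.9% for which the authors' deposited table lists q at 0. Total methylation of that tile was 79.7% in WT and 80.9% in p53-null. In 4 tiles of the locus, at chr2:153499601, 153502401, 153502601 and 153504201, 5mC in the first set was instead above the total in both genotypes.

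Dnmt3l, the inactive cofactor, had 6 CpGs and 7 tiles, the fewest of the 8. At chr10:77506603 the levels were 15% in naive WT, 0 in naive p53-null, 63% in RA WT and 40% in RA p53-null. At 77505396 they were 25%, 29%, 49% and 54%. RA groups were the higher in both CpGs, and the genotypes did not keep 1 order. The sequence of the promoter of Aire, another gene of this chromosome, also matched 5 CpGs of this window by the weaker rule of 5 CpGs. Its distance from the start of Icosl, placed on 13 CpGs just past the window, is the same in mm9 as in the reference build. The match thus lies where the reference has Aire. Of the 6 CpGs counted for Dnmt3l, 5 lie in this Aire promoter, 77506603 among them. By contrast, a promoter of Sgta fell in the Tet1 window by the same rule, although the reference has Sgta far from Tet1. In the first set total methylation rose at chr10:77520001-77520200, from 45.1% to 68.2% (the authors' deposited table lists q = 3.28e-11). Tiles called higher were 1 of 7 (14.3%) in total methylation and 4 of 7 (57.1%) in 5mC, against 28.1% and 36.6% of all tiles.

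Tet1, an oxidase with a DNA-binding CXXC domain that is abundant in mESC, had 38 CpGs, 18 of them under 5% throughout. All 38 together averaged 12.6% in naive WT, 17.4% in naive p53-null, 23.2% in RA WT and 22.8% in RA p53-null. A cluster of 6 CpGs from chr10:62333006 to 62333136 had 11 to 57% in naive WT, 27 to 56% in naive p53-null, 53 to 81% in RA WT and 55 to 76% in RA p53-null. Among them, 62333040 had 11%, 28%, 62% and 55%, and 62333057 had 44%, 31%, 81% and 76%. Neighbouring CpGs thus differed in the sign of the naive genotype difference, while all 6 were higher after RA in both genotypes. At 62342446 the pattern was another, with 26%, 64%, 27% and 40%: naive p53-null stood 37 points above RA WT. Total methylation rose in 3 of 19 tiles of the first set (15.8%), against 28.1% of all tiles, by the authors' deposited q-values. The largest difference was at chr10:62332801-62333000, from 8.11% to 46.9% (the authors' deposited table lists q = 0.00102), whereas 5mC there was 18.5% in WT and 7.41% in p53-null.

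Tet2, an oxidase without a CXXC domain of its own, had 21 CpGs, 17 of them in the low stretch at its placed start. The 4 others lie downstream of it, and within the stretch 1 CpG reached 8% in RA WT. At chr3:133129921 the levels were 69% in naive WT, 84% in naive p53-null, 90% in RA WT and 81% in RA p53-null. At 133149229 they were 19%, 37%, 67% and 57%, and at 133155250 they were 35%, 60%, 79% and 85%. Naive WT was the lowest group at all 4 downstream CpGs. The tile chr3:133149201-133149400 rose in the first set in total methylation, from 20.6% to 47.3% (q = 9.87e-09), and in 5mC, from 17.2% to 31.8% (q = 0.00138), both in the authors' deposited table. Measured tiles downstream of the start, from chr3:133196401 to 133197400, were at most 15.0% in every total mESC value. In the second set 5mC rose from 0 to 23.4% in the tile at 133196601 (the authors' deposited table lists q = 0.0120) and fell from 20.6% to 5.6% in the tile at 133197001 (the authors' deposited table lists q = 5.96e-05). The second-set totals in WT and p53-null were 3.51% and 13.6% at the former tile and 14.6% and 10.4% at the latter. The 5mC values of 23.4% and 20.6% thus exceed the totals of the same tile and genotype.

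Tet3, the oxidase best known from the oocyte and zygote, was the locus with the highest mean level per CpG. Its 14 CpGs averaged 27.6% in naive WT, 35.4% in naive p53-null, 41.5% in RA WT and 39.9% in RA p53-null. At chr6:83352862 the levels were 47%, 82%, 67% and 78%, so that p53-null stood above WT in both states. At 83325836 they were 37%, 68%, 68% and 54%, and at 83318020 they were 26%, 9%, 39% and 44%. Total methylation rose in 14 of 26 tiles of the first set (53.8%), against 28.1% of all tiles, by the authors' deposited q-values. In 5mC 14 rose (53.8%) and 1 fell (3.85%), against 36.6% and 6.03% of all tiles. The mean difference in total methylation was 14.4 points, the largest of the 8 loci, and whether it differs from that of the others was not tested. The tile chr6:83310801-83311000 went from 8% to 63.6% in total methylation (q = 0.00241) and from 13.0% to 92.3% in 5mC (q = 2e-07), both in the authors' deposited table. In both genotypes the 5mC value of that tile thus exceeds its total value. Total methylation of 1 Tet3 tile fell in the second set, at chr6:83371201-83371400, from 58.8% to 31.6% (the authors' deposited table lists q = 0.0180). That is 3.57% of the Tet3 tiles of the set, against 3.65% of all tiles. In 5mC of that set 5 tiles fell (17.9%) and 2 rose (7.14%), against 12.3% and 2.81% of all tiles. The tile chr6:83354401-83354600 rose in 5mC in the first set, from 37.3% to 62.4%, and fell in the second, from 74.2% to 39.5% (q = 1.8e-10 for the latter fall, per the authors' deposited table).

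The level of 5hmC was taken as total methylation minus 5mC. In the first set it averaged 5.55% in WT and 6.59% in p53-null over the 131 tiles, against 5.96% and 5.10% over all tiles. In the second set it averaged 0.80% and 3.86%, against 1.96% and 2.84%. A true level cannot be negative, yet 12 WT (9.16%) and 13 p53-null tiles (9.92%) of the first set were at -10 points or less, against 8.09% and 11.0% of all tiles. At 10 points or more were 37 (28.2%) and 46 (35.1%), against 31.7% and 30.5%. In the second set 12 (8.89%) and 9 (6.67%) were at -10 points or less, against 12.2% and 8.06%, and 22 (16.3%) and 29 (21.5%) at 10 or more, against 19.9% and 20.04%. These member shares lay near those of all tiles. By locus, the mean in the first set ran in WT from 0.48% in Dnmt3b to 8.95% in Dnmt3l, and in p53-null from -6.08% in Dnmt3b to 13.3% in Dnmt3a. The mean of Dnmt3b in p53-null was thus itself negative.

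In the columns taken as liver, the 175 member tiles with values in both genotypes averaged 58.0% in WT and 57.3% in p53-null, against 61.9% and 61.6% over all tiles. Of them, 48 (27.4%) were under 5% in both genotypes, against 18.7% of all tiles, and these include the low stretches, which liver helped to define. Another 75 (42.9%) were over 80% in both, against 41.4% of all, and the rest lay between or on different sides of these limits. Between the liver genotypes 6 tiles were higher and 6 lower by 25 points or more, where the whole table has 3.39% and 3.96%. These tiles have no q-value. Among the 98 tiles with values in all mESC and liver columns, the liver WT mean was 61.6%, and the mean of the 4 mESC totals was 35.0%. The 53 tiles over 80% in liver WT averaged 40.8% in WT and 52.7% in p53-null of the first set, and 64.3% and 59.4% of the second. The 27 tiles under 20% in liver WT averaged 0.725% and 1.59% there, and 1.95% and 1.67% for the second set.

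By 50 points or more, liver WT was above the mESC mean in 11 of the 98 tiles (11.2%), where the whole table has 15.2%. By 10 points or more it was below in 1, where the whole table has 3.61%. That tile is chr9:20706601-20706800 in Dnmt1, with 6.71% and 20% in WT and p53-null of the first set, 29.6% and 26.5% of the second, and 7.14% and 4.55% in liver. Of the 35 member tiles with an mESC mean under 20%, 4 were at 50% or more in liver WT, where the whole table has 19.7%; these limits were set after the values were seen. They lie in Dnmt1, Tet1 (2 tiles) and Tet2. The Dnmt1 tile chr9:20748601-20748800 had 6.67%, 5%, 21.6% and 23.1% in mESC and 90.0% and 100% in liver WT and p53-null. The Tet1 tile chr10:62328801-62329000 had 5.83%, 5.63%, 27.7% and 13.6% in mESC and 64.6% and 100% in liver. The next Tet1 tile, chr10:62329001-62329200, had 5.80%, 2.38%, 17.5% and 18.4% in mESC and 57.7% and 61.5% in liver. The Tet2 tile chr3:133196401-133196600 had 5.88%, 0, 15.0% and 9.68% in mESC and 100% and 56.2% in liver, the widest gap of the 8 loci. All 4 tiles lie downstream of a placed start, as do most tiles of the Dnmt1, Tet1 and Tet2 windows. The liver genotypes differed by 3.85 points at the last-named Tet1 tile and by 10 points or more at the other 3, without a known error.

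**Figure D4:**
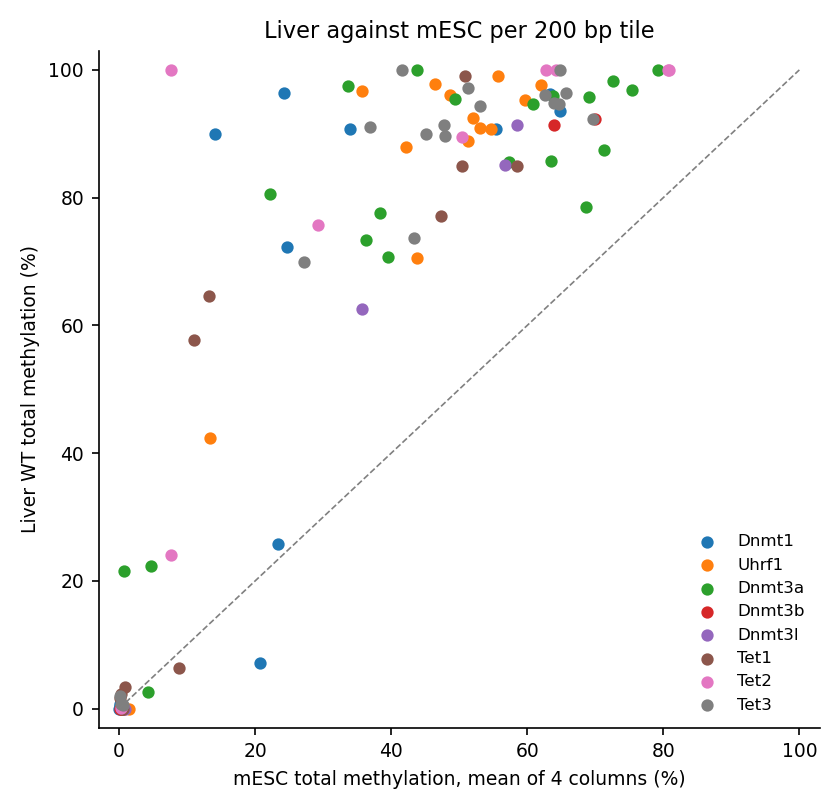
Liver WT methylation (percent, vertical axis) against the mean of the 4 total mESC columns (percent, horizontal axis), colored by locus. The dashed line marks equality. Each point is a member tile with these values, so the 98 tiles are drawn together with some that lack a liver p53-null value. Most tiles lie above the line or at its foot near 0, 1 Dnmt1 tile lies below it, and the Tet2 tile at 100% in liver stands at the far left.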

How the data were processed

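MspI-cut DNA was read by RRBS and oxRRBS. The submitters' processing notes name Trim Galore, BSMAP, methylKit and build mm9. No source used here gives their roles and versions, a coverage filter or the way libraries were pooled. The CpG table holds total methylation in whole percent, as deposited by the authors. The tile table holds the methylated fraction per 200 bp tile as deposited by the authors, multiplied here to percent, with differences between genotypes and q-values. The q-value is a score column deposited by the authors with -1 where the difference is 0, taken here as no q-value. The authors' other columns that were used were taken as deposited, with the sign of differences turned to p53-null minus WT. Their columns of hydroxymethylcytosine and of its difference between genotypes were not used. That level was taken here as total methylation minus the oxRRBS level. A further 6 value columns were not used, since no label defines their suffixes.

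The members and lists were chosen with earlier results of these data known. Loci were cut from windows of the series' build, each CpG or tile counting once, in Python 3.11.15 with pandas 2.3.3, numpy 2.4.6 and numba 0.67.0. Figures were drawn with matplotlib 3.10.9. Per locus, the text names sites from those with the largest difference each way in each comparison and the tiles with the largest called difference, beside neighbours and contrasting sites chosen after their values were seen. Other pathway genes were fixed as a list and are given by counts. Promoter placement and call counting were tested on simulated data. Tests over libraries were planned for the case that a file held single libraries; none does, so none was run. Nothing is known of depth. Alternatives tried were the median, each tile once, CpGs above 0, windows wider by 10 kb, leaving out each locus, other thresholds and a higher minimum for placement.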

Additional observations from a re-analysis of the deposited data

How the results depend on the processing

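No paired analysis was possible because each group has 1 pooled column without replicate numbers; leaving out each replicate and the tests over libraries were not run for the same reason. No result changed sign among the 268 alternatives to 40 results, but counts and methylation levels cannot do so. Only the differences and the 5hmC means could have changed sign. Of the 268, 223 stayed within 1.5 times the main value and 45 did not, and of 160 that left out a locus 156 stayed. The cause of the moves below was not tested. Between CpGs, the median difference was 0.0 for both genotype and both state comparisons. With each tile counted once, the genotype differences were 7.11 (naive) and -1.83 points (RA), and the state differences 14.4 (WT) and 5.45 (p53-null). The WT state difference was 11.5 over CpGs above 0, and the p53-null one 2.08 in windows widened by 10 kb. At 10 points, CpGs higher and lower numbered 33 and 3 for genotype in naive cells, 6 and 20 after RA, 52 higher for state in WT, and 37 and 9 in p53-null. By the authors' deposited table at q under 0.01 and 25 points, called tiles were 7 higher in total methylation of the first set and 0 and 0 of the second, and in 5mC 19 higher and 3 lower of the first and 0 and 2 of the second. At any size, 2 tiles were lower in total methylation and 10 in 5mC of the first set. In the second set, widened windows gave 6 lower in total methylation and 5 higher in 5mC, and tiles measured in both sets gave 0 higher in total methylation. Medians over tiles were 4.42 and -1.08 points for the genotype difference in total methylation of the first and second set, 1.92 and -1.22 for 5mC, and 13.0% for WT 5mC of the first set. For 5hmC they were 2.17% (WT) and 2.10% (p53-null) for set 1, with 0.0678% and 0.992% for set 2. The WT 5hmC mean of the second set was 2.18% over tiles measured in both sets, 1.26% without Dnmt3a, 1.27% without Uhrf1, 0.475% without Tet1 and 0.217% without Tet2. The median liver genotype difference was 0.0, and a minimum of 8 CpGs placed 3 promoters. Depth is unknown, so its limit on these values could not be given.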
